A study of Mus musculus with 6 samples.

Results

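Complex I of the respiratory chain, NADH:ubiquinone oxidoreductase, was followed through its nuclear genes in heart muscle cell preparations of wild-type mice. Members were the rows whose symbol begins with Nduf, then a, ab, b, c, s or v, then a digit. The rule gave 40 of the 22033 named genes in the deposited table: 15 of the A series (Ndufab1 included), 12 of the B series, 2 of the C series, 8 of the S series and 3 of the V series. Of these, 37 are known nuclear subunits of complex I. The other 3 are Ndufa4, now counted as a protein of cytochrome c oxidase, its paralog Ndufa4l2, and Ndufb11b, which had 0 counts in all 6 libraries. The deposited annotation fields placed all 40 in oxidative phosphorylation and in respiratory chain complex I.

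Complex I takes electrons from NADH through a flavin and a chain of iron-sulfur clusters to ubiquinone, and pumps protons across the inner mitochondrial membrane. Its N module binds NADH, its Q module reduces ubiquinone, and its P modules form the membrane arm. The core subunits, found also in bacteria, carry the cofactors and the proton path, and the accessory subunits surround them. The heart holds much of this complex, because its energy comes mainly from oxidative phosphorylation.

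In the AKG group, mice received α-ketoglutarate at 300 mg per kg per day by daily injection for 2 weeks. The Control group received phosphate-buffered saline instead. All mice were labelled wild type, and the labels name postnatal day 21 both for the injected mice and for the mice from which cells were taken. The cells were isolated from the heart by Langendorff perfusion, and mRNA was sequenced in 3 libraries per group. Nothing in the labels tells if mice were pooled for a library, and the p-values therefore cover the spread between these libraries, which may be technical.

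The AKG libraries held 14402876 to 15315236 counts and the Control libraries 16241120 to 17797368. Levels are given as CPM, counts scaled to a common library size after the library totals were adjusted by edgeR's TMM factors, so every change is relative to the bulk of genes. Of 9 heart muscle markers, 7 fell and 0 rose (5 and 2 with unadjusted library totals), and their summed level was 29703 to 33566 CPM in AKG libraries against 55574 to 59943 CPM in Control libraries. Myh6 made up the largest part of that sum, at means of 12419.2 CPM in AKG and 27725.5 CPM in Control libraries. Fewer cells of a type and less RNA per cell cannot be told apart in such bulk samples. Summed markers of pericytes and smooth muscle (12 genes, 8 lower and 1 higher, or 4 and 3 with unadjusted totals) were 1424 to 1627 CPM in AKG libraries and 2378 to 2605 CPM in Control libraries. Those of macrophages (8 genes, 3 lower and 0 higher, or 2 and 1 with unadjusted totals) were 78.1 to 98 CPM in AKG libraries and 116 to 177 CPM in Control libraries. Fibroblast sums (9 genes, 3 lower and 3 higher, or 1 and 4 with unadjusted totals) were 2892 to 3867 CPM in AKG libraries against 2872 to 3662 CPM in Control libraries. Endothelial sums (8 genes, 2 lower and 3 higher, or 0 and 6 with unadjusted totals) were 1570 to 1841 CPM in AKG libraries against 1491 to 1618 CPM in Control libraries. Atrial markers (6 genes, 4 of them tested, 0 lower and 1 higher, or 0 and 3 with unadjusted totals) summed to 857.8, 461.2 and 939.1 CPM in AKG 1, 2 and 3 and to 92 to 150.6 CPM in Control libraries. Nppa, the atrial natriuretic peptide gene, made up most of that sum and was the marker called higher, with 499.3, 453.6 and 719.6 CPM in AKG libraries and 138.5, 135.1 and 85.6 CPM in Control libraries. For the other 5 atrial markers AKG 2 stood apart from AKG 1 and AKG 3 and near the Control libraries. Sln, for example, was at 0.186 CPM in AKG 2 and at 42.8 and 28.8 CPM in AKG 1 and AKG 3. In Control libraries Sln reached 0.476 CPM at most, with 0 counts in Control 3, and Bmp10 had 0 counts in Control 1 and Control 3. Calls here and below are edgeR's quasi-likelihood test at a Benjamini-Hochberg adjusted p under 0.05. Beside these marker counts, 25.2% of the 13117 genes tested were lower and 25.0% higher, or 9.13% and 56.6% with unadjusted totals. The part of these cell types in the results below was not tested.

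Nuclear transcripts of complex I were lower in AKG than in Control libraries in every series. All 37 known subunits fell, and 0 rose, by edgeR's quasi-likelihood test, where 25.2% of all genes tested were lower and 25.0% were higher. The median log2 fold change of the 37 was -1.16, beside 0.00 for all genes tested. Ndufa4 and Ndufa4l2 also passed as lower, so 39 of the 40 members were lower, and Ndufb11b had too few counts to be tested. Summed over the 37 subunits, the level was 4089.5, 4664.2 and 4221.2 CPM in AKG libraries 1 to 3, against 8870.8, 8442.4 and 9496.9 CPM in Control libraries 1 to 3. For 27 of the 37 the fitted AKG level was at most 50% of Control with an edgeR adjusted p under 0.05. Both conditions held for 6.12% of all genes tested. The 3 AKG values of each of the 39 tested members lay wholly below the 3 Control values, as they did for 29.9% of all genes tested.

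**Figure D1:**
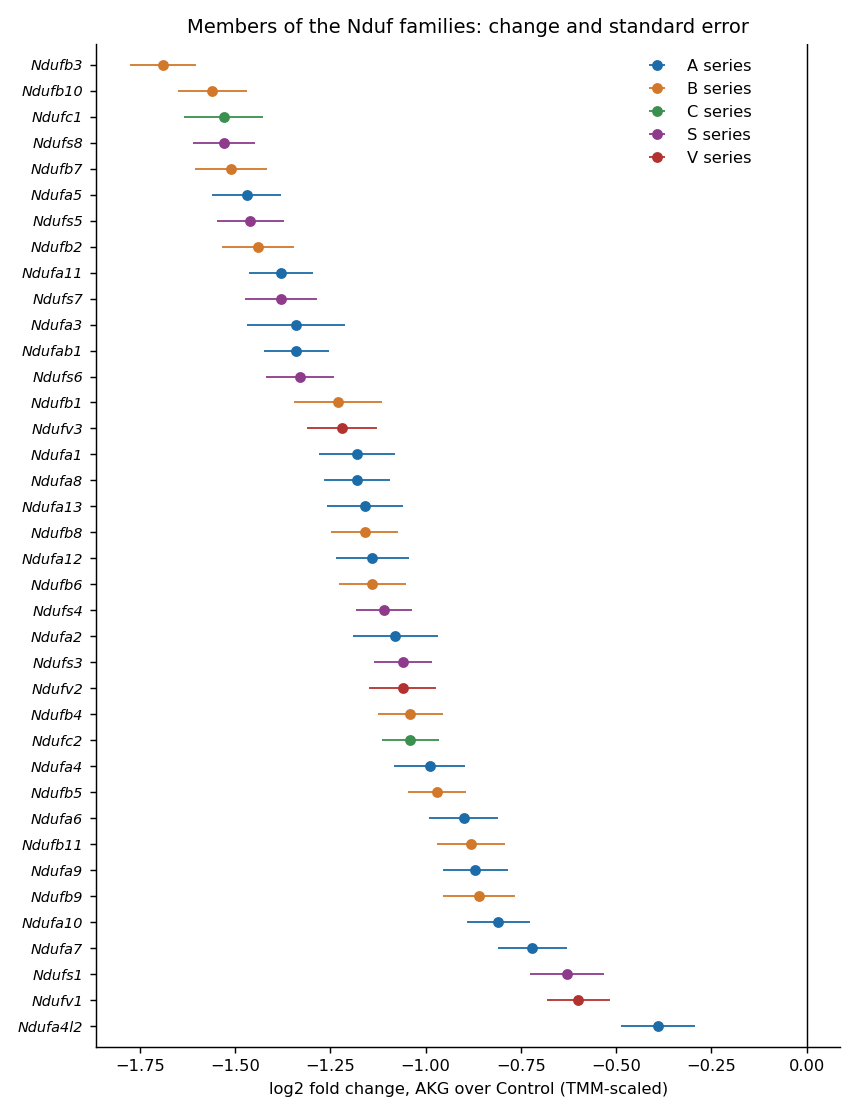
Log2 fold change (AKG over Control, horizontal axis) of 38 tested members, one row per gene, with bars of 1 standard error and colours for the A, B, C, S and V series. The values run from -1.69 for Ndufb3 to -0.39 for Ndufa4l2, and all lie left of 0 on the TMM scale.

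The scaling set the size of the fall. When library totals were used without adjustment (total-count scaling), the median of all genes tested moved to 0.44 and that of the 37 subunits to -0.72. The distance between them was 1.16 on the log2 scale in both. This was nearly fixed in advance, as total-count scaling moves all genes by almost the same amount. Under that scaling 34 of the 37 subunits were lower and 0 higher, where 9.13% of all genes tested were lower and 56.6% higher. At most 50% of the Control level, with an edgeR adjusted p under 0.05, was then reached by 7 of the 37, against 2.52% of all genes tested. On the deposited FPKM scale, which also uses unadjusted totals, the AKG values of 34 of the 37 lay wholly below the Control values, as they did for 10.1% of all genes tested. Ndufv1 and Ndufs1 were among the 3 that did not pass. In the authors' deposited table, 38 of the 39 tested members had a negative log2 ratio of mean FPKM and a false discovery rate under 0.05, where 17.0% of the genes tested here did. That rate need not rest on the FPKM ratio: Ndufv1 had a deposited rate of 3.79e-12 beside a ratio of -0.15. With limma on log2(FPKM + 1), 35 of the 39 members were lower. The median of that deposited ratio over the 37 subunits was -0.72.

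The 7 nuclear core subunits ran from -1.53 for Ndufs8 to -0.60 for Ndufv1 on the log2 scale. Ndufv1, which binds NADH and the flavin, had 290.9, 323.5 and 312 CPM in AKG libraries and 440.5, 465.6 and 497.2 CPM in Control libraries. Its log2 fold change was -0.60 (SE 0.0827, edgeR adjusted p = 5e-05), the smallest fall among the 37 subunits. Under total-count scaling it was -0.16 (edgeR adjusted p = 0.145). Ndufv2, the iron-sulfur partner of Ndufv1 in the flavoprotein, had 186.7, 222.4 and 205.2 CPM in AKG libraries against 401.2 to 452.9 CPM in Control libraries. The log2 fold change of Ndufv2 was -1.06 (SE 0.0881, edgeR adjusted p = 6.23e-07), and its groups stood further apart than those of Ndufv1. Ndufs1, the large subunit that carries several iron-sulfur clusters, had 210.7, 231.8 and 267.7 CPM in AKG libraries and 337.1, 372.4 and 390.4 CPM in Control libraries. Its log2 fold change was -0.63 (SE 0.0973, edgeR adjusted p = 0.000126), and -0.19 under total-count scaling (edgeR adjusted p = 0.16). On the TMM scale AKG 3 held the highest value of its group for Ndufs1, the only subunit of the 37 for which AKG 2 was not the highest AKG library.

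Core subunits of the Q module carry electrons to ubiquinone. Ndufs7, which holds the last iron-sulfur cluster before ubiquinone, had 84.2, 105.7 and 101.4 CPM in AKG libraries against 242.4, 242 and 274.9 CPM in Control libraries. Its log2 fold change was -1.38 (SE 0.0956, edgeR adjusted p = 1.22e-07), and the groups stood far apart. Ndufs8, an iron-sulfur protein of the electron path, had 78.3, 82.8 and 74.5 CPM in AKG libraries and 217.2, 218.1 and 246.2 CPM in Control libraries. It fell most among the core subunits, with a log2 fold change of -1.53 (SE 0.0814, edgeR adjusted p = 1.6e-08). Ndufs3, which is needed early in assembly, had 122.7, 134.1 and 132.1 CPM in AKG libraries and 271, 257.8 and 282.1 CPM in Control libraries, a log2 fold change of -1.06 (SE 0.0769, edgeR adjusted p = 1.9e-07).

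**Figure D2:**
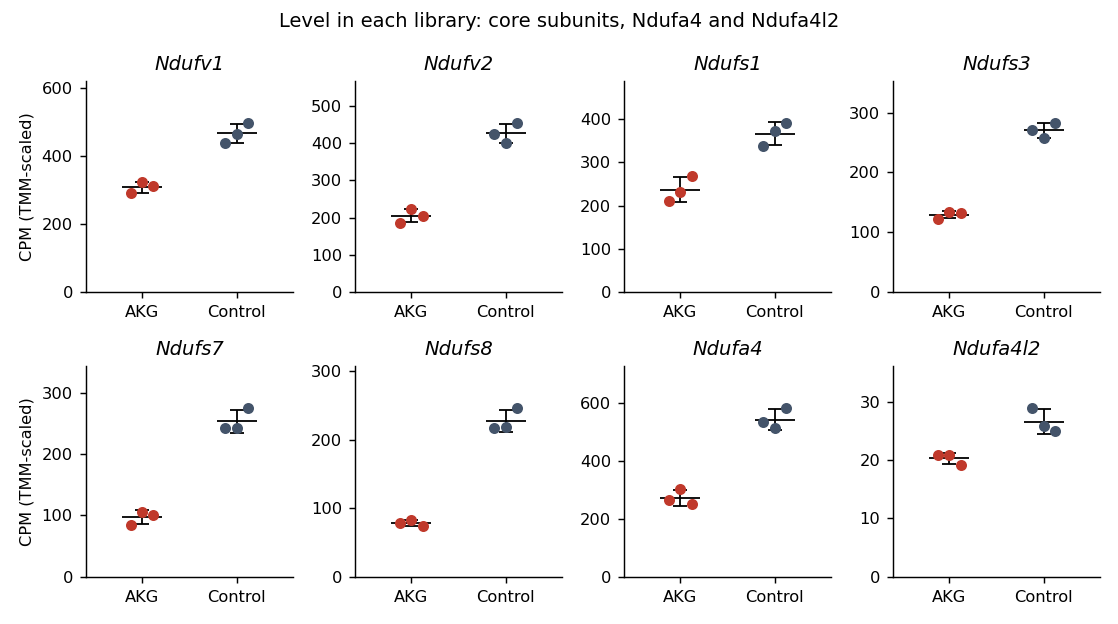
Level in CPM on TMM-scaled library totals (vertical axes, each from 0) for 6 core subunits, Ndufa4 and Ndufa4l2, with 1 point per library, and the mean and SD of 3 libraries as bars. AKG points lie below Control points in every panel, and the gap is narrower for Ndufv1, Ndufs1 and Ndufa4l2 than for Ndufs7 and Ndufs8.

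Ratios of counts within a library do not depend on how libraries are scaled. Pairs were taken by role, after the values had been seen, and are described without a test. The count of Ndufv2 was 64.2, 68.8 and 65.8% of that of Ndufv1 in AKG libraries, against 96.1, 86.2 and 91.1% in Control libraries. The groups did not overlap in this ratio, so transcripts of these partners changed by unequal amounts whichever scaling was used. Ndufv1 had the smallest fall of the 37 subunits, and how many other gene pairs lacked overlap was not counted. The transcripts also differed in length, at 1052 bases for Ndufv2 and 1637 bases for Ndufv1, and the part of length was not tested.

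**Figure D3:**
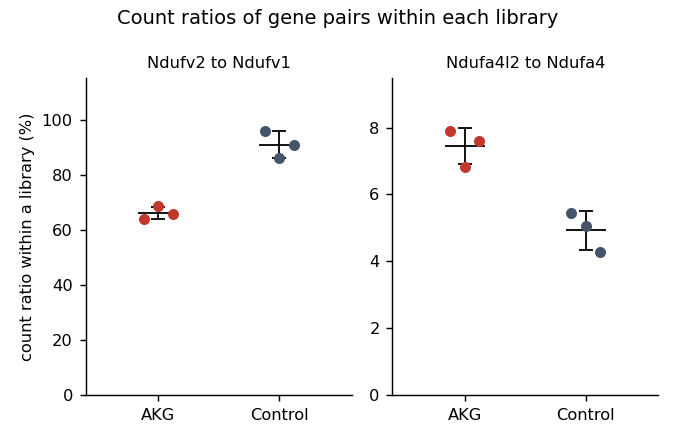
Count of 1 gene as a percentage of the count of another in the same library (vertical axes, each from 0), with 1 point per library, and the mean and SD of 3 libraries as bars. The ratio of Ndufv2 to Ndufv1 is lower in AKG, and that of Ndufa4l2 to Ndufa4 is higher, at 6.83 to 7.89% in AKG libraries against 4.28 to 5.43% in Control libraries.

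The B series, all accessory proteins of the distal membrane arm, held the deepest falls. Ndufb3 had 33, 36.1 and 31.3 CPM in AKG libraries and 110.3, 97.7 and 116.5 CPM in Control libraries. Its fitted AKG level was 30.9% of Control (log2 fold change -1.69, SE 0.0876, edgeR adjusted p = 1.22e-08), the lowest among the members. Ndufb10, which faces the intermembrane space, had 119, 143.7 and 129.4 CPM in AKG libraries against 391.9, 358.4 and 403.9 CPM in Control libraries. Its log2 fold change was -1.56 (SE 0.09, edgeR adjusted p = 2.99e-08), next in size to that of Ndufb3. At the other end of the series, Ndufb9 had 179.2, 200.5 and 161.6 CPM in AKG libraries and 319.5, 304.4 and 358 CPM in Control libraries (log2 fold change -0.86, SE 0.0952, edgeR adjusted p = 7.44e-06). Ndufb9 belongs to the LYR family, whose members bind the mitochondrial acyl carrier protein. The X-linked Ndufb11 had a log2 fold change of -0.88 (SE 0.0894, edgeR adjusted p = 3.55e-06), with 142.9 ± 14.8 CPM in AKG libraries and 262.6 ± 16 CPM in Control libraries (SD, n = 3 each). Between these ends lay Ndufb7 at -1.51, Ndufb2 at -1.44, Ndufb1 at -1.23, Ndufb8 at -1.16, Ndufb6 at -1.14, Ndufb4 at -1.04 and Ndufb5 at -0.97 on the log2 scale. All 11 tested genes of the series were lower under both scalings, with medians of -1.16 on TMM and -0.72 with total counts.

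The A series spans every module. Its smallest p-values belonged to Ndufa11, a membrane arm subunit, and Ndufa5 of the Q module. Ndufa11 had 87.5, 104.3 and 92.9 CPM in AKG libraries and 254.2, 234.9 and 252.9 CPM in Control libraries (log2 fold change -1.38, SE 0.0841, edgeR adjusted p = 4.13e-08). Ndufa5 had 55.6, 63.9 and 54.4 CPM in AKG libraries against 165, 143 and 172.6 CPM in Control libraries (log2 fold change -1.47, SE 0.0912, edgeR adjusted p = 5.05e-08). Both genes were left with less than 40% of their Control level in the fit, at 38.4% and 36.2%. Ndufa7 of the N module fell least among the 13 complex I genes of the series, with 61.5, 73.8 and 61 CPM in AKG libraries and 114.7, 98.7 and 110.8 CPM in Control libraries (log2 fold change -0.72, SE 0.0902, edgeR adjusted p = 2.07e-05). Ndufab1, the mitochondrial acyl carrier protein, sits in the complex in both the N module and the distal arm and also serves fatty acid synthesis. It had a log2 fold change of -1.34, with 147.5 ± 11.8 CPM in AKG libraries and 374.1 ± 19.5 CPM in Control libraries (SD, n = 3 each). The LYR protein Ndufa6, its partner in the N module, had -0.90. The remaining members were Ndufa3 at -1.34, Ndufa1 and Ndufa8 at -1.18, Ndufa13 at -1.16, Ndufa12 at -1.14, Ndufa2 at -1.08, Ndufa9 at -0.87 and Ndufa10 at -0.81.

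In the C series, Ndufc1 had 30.6, 36.6 and 29.6 CPM in AKG libraries and 94.4, 81.4 and 103.1 CPM in Control libraries (log2 fold change -1.53, SE 0.104, edgeR adjusted p = 1.75e-07). Ndufc2 had 51.2, 54.8 and 49.6 CPM in AKG libraries and 109.5, 101.2 and 109.8 CPM in Control libraries (log2 fold change -1.04, SE 0.0739, edgeR adjusted p = 1.54e-07). Both belong to the proximal membrane arm. Of the accessory genes in the S series, Ndufs5 had 47, 55.1 and 47.9 CPM in AKG libraries against 141.1, 124.7 and 147.5 CPM in Control libraries (log2 fold change -1.46, SE 0.0885, edgeR adjusted p = 4.13e-08). Ndufs5, Ndufa8, Ndufb7 and Ndufb10 share a paired cysteine motif and are imported into the intermembrane space, and their log2 fold changes ran from -1.56 to -1.18. Ndufs4 and Ndufs6, which stabilise the N module and are mutated in human complex I deficiency, had log2 fold changes of -1.11 and -1.33. Ndufv3, the accessory subunit of the flavoprotein, had 73.5, 88 and 69.8 CPM in AKG libraries and 187.8, 168.2 and 183.9 CPM in Control libraries (log2 fold change -1.22, SE 0.0923, edgeR adjusted p = 2.59e-07).

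By series, the median log2 fold changes were -1.16 for the 13 complex I genes of A, -1.16 for B, -1.28 for C, -1.22 for S and -1.06 for V. By position in the enzyme they were -1.08 for the N module (11 genes), -1.22 for the Q module (6), -1.18 for the proximal membrane arm (9) and -1.19 for the distal arm (12), with Ndufab1 counted in N and in the distal arm. The 7 core subunits had a median of -1.06 and the 30 accessory subunits -1.17. Under total-count scaling, 4 of the 7 core and all 30 accessory subunits were lower, where 9.13% of all genes tested were lower. Core transcripts had a median length of 1052 bases and accessory ones 670 bases. The core subunits under 1000 bases, Ndufs8 and Ndufs7, had -1.53 and -1.38, beside a median of -1.18 for accessory subunits under 1000 bases. The part of length in these medians was not tested. The medians of log2 fold change by series, position and core role lay closer together than the members within 1 module: the N module alone ran from -1.34 for Ndufab1 to -0.60 for Ndufv1. Differences between series or modules were not tested.

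Transcript length moved with the size of the fall. The lengths that the deposited FPKM values used could be worked back from counts, totals and FPKM, and ranged from 419 bases for Ndufa1 to 2652 bases for Ndufs1 among the 37 subunits. The 27 subunits under 1000 bases had a median log2 fold change of -1.22, and the 10 longer ones had -0.96. Among all genes tested the same order was seen: 56.2% of 788 genes under 1000 bases were lower, against 23.5% of 12123 longer genes. Within each length class that held subunits, the median of the subunits was below that of all genes, at -1.19 against -0.55 for 500 to 750 bases (18 subunits), and at -1.08 against -0.20 for 1000 to 1500 bases (6 subunits). Spearman's rho between length and log2 fold change was 0.434 across the 37 subunits and 0.241 across 12911 genes, as a description across genes that share libraries and are not independent replicates. Ndufv1 and Ndufs1 were among the 4 longest transcripts of the 37, so length and core function cannot be told apart for them. The exceptions within the short class included Ndufa7, at 526 bases with -0.72, and in the long class Ndufab1, at 1452 bases with -1.34. The part of length in the falls was not tested.

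**Figure D4:**
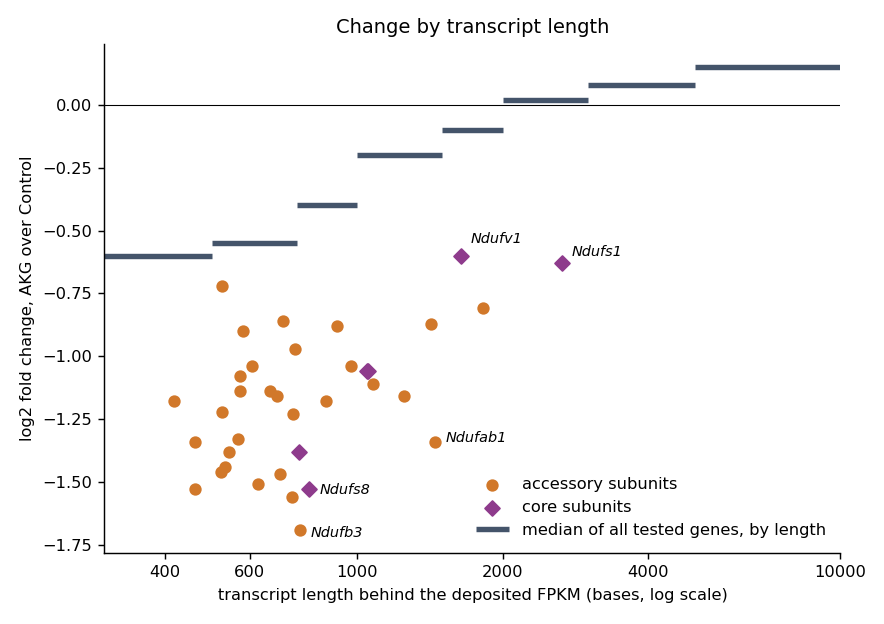
Log2 fold change (AKG over Control) against transcript length in bases on a log axis for 30 accessory and 6 core subunits, with horizontal lines for the median of all tested genes in each length class (the last class is open-ended). The lines climb from -0.60 under 500 bases to 0.15 above 5000 bases, and the subunits lie below the line of their class.

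Levels of the subunits relative to each other were compared on the deposited FPKM scale, which divides by length. Ndufb8, of the distal arm, was the most abundant of the 37 in every library, at 327.7, 358.6 and 341.5 FPKM in AKG libraries and 529 to 592.2 FPKM in Control libraries. Ndufb1 was the least abundant in every library, at 24, 30 and 27.7 FPKM in AKG libraries and 42.8 to 50.3 FPKM in Control libraries. The median FPKM of the 37 was 132.4 to 143.4 in AKG libraries and 217.4 to 235.5 in Control libraries. Ndufv1 and Ndufv3, both of the flavoprotein, differed in order: Ndufv1 stood above Ndufv3 in AKG libraries at mean levels of 220.3 and 166.5 FPKM, while in Control libraries Ndufv1 at 245.1 FPKM stood below Ndufv3 at 299.3 FPKM. The level in Control and the log2 fold change were unrelated in rank across the 37 (Spearman's rho -0.0109, a description).

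The order of libraries within a group was shared by many subunits, and it depended on the scaling. On the TMM scale AKG 2 held the highest CPM of its group for 36 of the 37 subunits, and Control 2 the lowest of its group for 33. These libraries also had the lowest TMM factor of the AKG group (1.118, against 1.162 and 1.22) and the highest of the Control group (0.9052, against 0.8325 and 0.8369). On the deposited FPKM scale AKG 2 was highest for 28 of the 37, and Control 2 was lowest for 15 against 20 for Control 1. AKG 2 was also the library in which the atrial markers other than Nppa were near the Control level. Without AKG 2 the median log2 fold change of the 37 was -1.23, and all 39 tested members were still lower. The coefficient of variation over 3 libraries had a median of 9.05% in AKG and 7.1% in Control, and was widest for Ndufa3 at 19.8% in AKG libraries.

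Ndufa4 and Ndufa4l2 encode related proteins, and Ndufa4l2 is known as a target of hypoxia-inducible factor that is abundant in pericytes. Ndufa4 had 264.1, 304.5 and 252 CPM in AKG libraries and 532.1, 512.3 and 582.1 CPM in Control libraries (log2 fold change -0.99, SE 0.0924, edgeR adjusted p = 1.71e-06). Ndufa4l2 was at a far lower level, with 20.8, 20.8 and 19.2 CPM in AKG libraries and 28.9, 25.9 and 24.9 CPM in Control libraries. Its log2 fold change was -0.39 (SE 0.0965, edgeR adjusted p = 0.00411), and it turned to 0.05 under total-count scaling (edgeR adjusted p = 0.687), so its direction rested on the scaling. In the authors' deposited table its log2 ratio was 0.05 beside a false discovery rate of 0.0109. The ratio of Ndufa4l2 to Ndufa4 counts was 7.89, 6.83 and 7.61% in AKG libraries and 5.43, 5.05 and 4.28% in Control libraries, with no overlap. How many other gene pairs lacked overlap was not counted. Of the 12 pericyte and smooth muscle markers, 8 were lower and 1 higher, or 4 and 3 under total-count scaling. Over all genes tested, 25.2% were lower and 25.0% higher, or 9.13% and 56.6% under total-count scaling. The markers ran from Acta2 at -2.32 to Abcc9 at 0.39 on the log2 scale. Between them lay Vtn at -1.75, Higd1b at -0.92, Rgs5 at -0.62, Kcnj8 at -0.41, Cspg4 at -0.28 and Pdgfrb at -0.02, among others. Under total-count scaling Rgs5 stood at -0.18 (edgeR adjusted p = 0.0988) and Pdgfrb at 0.43 (edgeR adjusted p = 0.000575). Their part in the level of Ndufa4l2 was not tested.

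The other components of complex I were lower as well. All 7 mitochondrially encoded subunits fell, where 25.2% of all genes tested were lower and 25.0% higher. Their median log2 fold change was -1.07, against -1.16 for the nuclear subunits. The 3 with the smallest p-values were mt-Nd2 at -1.53, mt-Nd3 at -1.44 and mt-Nd1 at -1.10. mt-Nd2 had 9403.9, 9986.7 and 7718 CPM in AKG libraries and 27767, 23603 and 27075 CPM in Control libraries. Of the 17 assembly factors found among 18 listed symbols, which build the complex but are not part of it, 16 fell and 1 rose, with a median of -0.80. Ndufaf1, which acts on the membrane arm intermediate, had 12.2, 10.2 and 14.5 CPM in AKG libraries and 35, 35.2 and 40.7 CPM in Control libraries (log2 fold change -1.58, SE 0.123, edgeR adjusted p = 3.54e-07). Ndufaf4 had -1.29 (SE 0.081, edgeR adjusted p = 5.21e-08) and Ecsit -0.97 (SE 0.0722, edgeR adjusted p = 2.24e-07). Nubpl, which delivers iron-sulfur clusters to complex I, was the factor that rose, with 5.84, 7.26 and 5.43 CPM in AKG libraries and 3.33, 3.79 and 4.12 CPM in Control libraries (log2 fold change 0.72, SE 0.192, edgeR adjusted p = 0.00668). Under total-count scaling, 11 assembly factors were lower and 1 higher, where 9.13% of all genes tested were lower and 56.6% higher.

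Beside the 37 of 37 nuclear subunits of complex I, complex III had 9 of 9 genes lower, with a median of -1.08. Over all genes tested, 25.2% were lower and 25.0% higher. Complex II had 3 of 4 lower (median -0.67), complex IV 13 of 15 lower and 1 higher (median -0.98), and complex V 15 of 18 lower and 1 higher (median -0.99). The higher gene of the complex IV list was Cox6b2 (0.85, edgeR adjusted p = 0.0186), with only 18 to 54 counts per library. That of the complex V list was Atpif1 (0.23, edgeR adjusted p = 0.0432). Neither call held in every fit that left out 1 library. The lists were not built alike, so their spreads cannot be compared directly. Ndufa4 (-0.99) and Ndufa4l2 (-0.39) were left out of complex I, and Ndufa4 was not placed in the complex IV list. The genes of other complexes nearest to 0 included catalytic subunits: the flavoprotein gene Sdha of complex II had -0.10 (edgeR adjusted p = 0.396) and the ATP synthase beta subunit gene Atp5b -0.06 (edgeR adjusted p = 0.641). Their transcripts were long, at 2900 and 1916 bases against list medians of 1349 and 723, so length and role cannot be told apart for them. Cox8a of complex IV (-0.18, edgeR adjusted p = 0.0852) and Atp5g2 of complex V (-0.20, edgeR adjusted p = 0.0532) did not pass either. Their transcripts were short, at 550 and 730 bases. Under total-count scaling Sdha was higher in AKG libraries by 0.34 (edgeR adjusted p = 0.0122) and Atp5b by 0.38 (edgeR adjusted p = 0.0039). Cox8a was then higher by 0.26 (edgeR adjusted p = 0.0153) and Atp5g2 by 0.25 (edgeR adjusted p = 0.0159). On that scale 56.6% of all genes tested were higher, and none of the 37 complex I subunits was. The differences between complexes were not tested. Summed heart muscle markers stood in AKG at 32020 ± 2044 CPM and in Control at 57554 ± 2213 CPM, beside 4325 ± 301.1 CPM and 8936.7 ± 530.3 CPM for the 37 subunits (SD, n = 3 each). The median log2 fold change of the 9 heart muscle markers was -0.76. Of these, 7 were lower, Myh6 among them at -1.16. Actn2 at -0.13 (edgeR adjusted p = 0.232) and Pln at -0.01 (edgeR adjusted p = 0.939) did not pass.

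**Figure D5:**
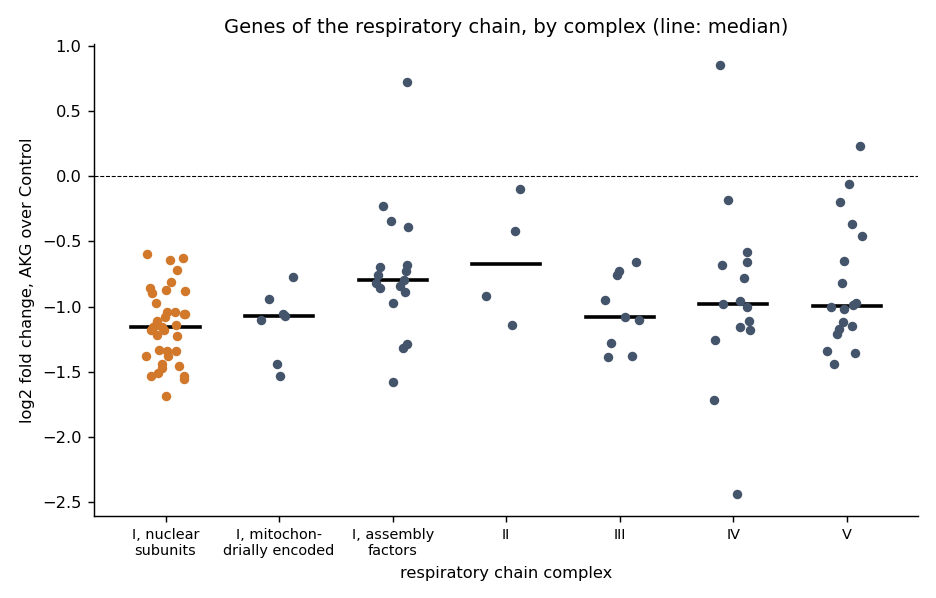
Log2 fold change (AKG over Control, vertical axis) of each tested gene of the respiratory chain, grouped by complex, with a line at the median of each group. Complex I nuclear subunits lie between -1.69 and -0.60, while complexes II, IV and V each hold genes near or above 0. The groups were not built alike: Ndufa4 and Ndufa4l2 (-0.39) are left out, while the low-count Cox6b2 and Atpif1 are kept.

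The promoters of the members were read for motifs of factors known to act on nuclear genes of respiration: NRF1 (GCGCA, then any base, then GCGC), the ETS family (CCGGAAG), YY1 (AAGATGGCG) and the estrogen-related receptors (AAGGTCA), each on both strands. RefSeq promoter windows on GRCm38.p6, from 250 bases before to 50 after each gene start, were matched by symbol for 33 of the 37 subunits (35 windows). Ndufa2, Ndufb9 and Ndufs1 were among those with none. The deposited table names no build in the sources used here, so these positions belong to the promoter table only. The stretches below run from 250 bases before to 30 bases after the start, on the strand of the gene, with motif letters in capitals. They show the deepest fall (Ndufb3), accessory and core subunits with motifs (Ndufs5, Ndufs6, Ndufs8) and the smallest fall (Ndufv1).
Ndufb3, chr1:58586147-58586426, plus strand: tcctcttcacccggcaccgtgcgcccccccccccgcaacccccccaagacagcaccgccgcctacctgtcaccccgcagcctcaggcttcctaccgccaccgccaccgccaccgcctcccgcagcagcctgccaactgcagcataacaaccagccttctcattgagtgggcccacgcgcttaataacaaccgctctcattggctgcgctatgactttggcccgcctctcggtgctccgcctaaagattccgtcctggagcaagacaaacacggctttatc
Ndufs5, chr4:123718157-123718436, minus strand: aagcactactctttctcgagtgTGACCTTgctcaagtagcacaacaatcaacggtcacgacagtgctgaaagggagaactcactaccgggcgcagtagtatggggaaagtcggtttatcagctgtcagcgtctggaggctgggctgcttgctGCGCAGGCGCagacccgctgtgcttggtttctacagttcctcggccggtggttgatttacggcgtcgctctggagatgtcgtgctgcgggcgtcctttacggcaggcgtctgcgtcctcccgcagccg
Ndufs6, chr13:73328453-73328732, minus strand: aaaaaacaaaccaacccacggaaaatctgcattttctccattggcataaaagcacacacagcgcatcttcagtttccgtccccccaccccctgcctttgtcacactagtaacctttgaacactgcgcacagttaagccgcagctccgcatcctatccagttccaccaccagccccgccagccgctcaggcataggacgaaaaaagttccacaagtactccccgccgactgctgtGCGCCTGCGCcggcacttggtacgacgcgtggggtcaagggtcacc
Ndufs8, chr19:3912745-3913024, minus strand: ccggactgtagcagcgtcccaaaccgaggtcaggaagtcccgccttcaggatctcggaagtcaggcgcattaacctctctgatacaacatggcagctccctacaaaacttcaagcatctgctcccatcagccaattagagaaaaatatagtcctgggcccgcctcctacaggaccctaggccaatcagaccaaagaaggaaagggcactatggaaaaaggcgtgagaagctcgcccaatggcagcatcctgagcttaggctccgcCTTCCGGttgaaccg
Ndufv1, chr19:4012726-4013005, minus strand: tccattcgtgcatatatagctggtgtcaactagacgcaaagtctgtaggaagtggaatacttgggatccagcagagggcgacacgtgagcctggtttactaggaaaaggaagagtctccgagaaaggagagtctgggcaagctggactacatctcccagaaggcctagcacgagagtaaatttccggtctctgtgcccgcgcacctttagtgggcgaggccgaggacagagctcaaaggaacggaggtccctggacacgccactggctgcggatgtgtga
Ndufs5 carried an NRF1 and an estrogen-related receptor motif, Ndufs6 an NRF1 motif (and a YY1 motif past its end) and Ndufs8 an ETS motif in the stretch shown, and the motifs did not overlap. None of the searched letters occurred in the windows of Ndufb3 or Ndufv1. Ndufs8 and Ndufv1 lie close to each other on chromosome 19, with log2 fold changes of -1.53 and -0.60. The NRF1 letters occurred in 22.9% of the 35 windows, against 9.42% of windows of genes tested here and 4.6% of all 32851 windows. For YY1 the shares were 14.3%, 2.83% and 1.4%, for ETS 11.4%, 16.6% and 8.86%, and for the estrogen-related receptors 8.57%, 3.14% and 4.72%, in the same order. The 7 subunits with the NRF1 letters had a median log2 fold change of -1.33 and the 26 without had -1.16, and their ranges overlapped (-1.47 to -0.90 and -1.69 to -0.60). The other motifs had the same order: -1.32 with (4 subunits) and -1.18 without for ETS, and -1.33 (5 subunits) and -1.17 for YY1. For the estrogen-related receptors the medians were -1.44 (3 subunits) and -1.17. In each case the range with the motif lay inside the range without it, which was -1.69 to -0.60. The groups shared subunits: Ndufs6 had NRF1 and YY1 letters, and Ndufs5 and Ndufb4 had NRF1 and estrogen-related receptor letters. Such differences were not tested. A match is a description of letters and does not show that a factor binds there.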

How the data were processed

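Messenger RNA of isolated mouse heart muscle cells was measured in 6 libraries. A table of 22063 rows, deposited by the authors, gives expected counts (already whole numbers) and FPKM for each library. Per the submitters' processing notes HISAT2 2.1.0, RSEM 1.2.19 and DESeq2 1.20.0 were used, and the build and its annotation are not given in the sources used here. The authors' deposited log2 fold change is the ratio of mean FPKM. Deposited p-values and false discovery rates stand beside this ratio but need not rest on it. FPKM is scaled to each library's total, which abundant transcripts affect. Mitochondrially encoded genes took 25.7 to 31.4% of counts in AKG libraries and 38.3 to 43.1% in Control libraries.

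The main test used edgeR 4.0.16 under R 4.3.3: filterByExpr (minimum count 10, minimum total 15) kept 13117 genes, TMM scaled the libraries, and the quasi-likelihood test with robust dispersion compared AKG with Control, with Benjamini-Hochberg adjustment over all genes tested and a threshold of 0.05. Each SE was obtained from the log2 fold change and the F statistic of that test. A count of 3 corresponds to 0.166 to 0.221 CPM. Rows without a symbol (30) held at most 0.000112% of counts and were left out. The procedure was run on simulated counts with few changed genes, as many raised as lowered, so the run does not test the choice of scaling. Alternatives were other scalings, no filter, DESeq2 1.42.0, limma 3.58.1 on log2(FPKM + 1) and log2(FPKM + 0.1) (genes reaching FPKM 1 in at least 3 libraries), a replicate block, and the omission of single libraries. Overlap and library order on the FPKM scale, and the 50% count with total counts, were added after seeing the data. Members, lists and roles were chosen with earlier results of these data known. Described in full were the core subunits, per series the 2 members with the smallest adjusted p and the 2 nearest 0, and Ndufa4 and Ndufa4l2; of the assembly factors and mitochondrially encoded genes, the 3 smallest p-values and any that rose. Values of 1 item under this rule are not reported here, though counts and medians include it. Other values named beside these, Sdha and Atp5b among them, were chosen after values had been seen.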

Additional observations from a re-analysis of the deposited data

How the results depend on the processing

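Of the 39 tested members, all 39 stayed lower and past the threshold with RLE scaling, DESeq2, no filter, the replicate block, without mitochondrially encoded genes and without each library in turn. With total counts, and with limma on either FPKM scale, 35 stayed lower, 3 no longer passed, Ndufs1 and Ndufv1 among them, and Ndufa4l2 turned to 0.05 in each. Over all genes, 1197 were then lower and 7430 higher with total counts, 1075 and 6722 with limma on log2(FPKM + 1), and 1070 and 6709 on log2(FPKM + 0.1), against 3309 and 3281. The median of the 37 subunits ranged from -1.23 (without AKG 2) to -1.11 (without AKG 1 or without AKG 3) when 1 library was left out. With total counts as the scaling, complex II had 1 higher gene, complex IV 2 and complex V 3, where 56.6% of all genes tested were higher. Leaving out 1 library gave 0 to 1 higher genes in complex IV and in complex V. The replicate numbers were not stated to pair animals, and the deviations of same-numbered libraries correlated at 0.161, -0.0342 and 0.0489. With the replicate block 3314 genes were lower and 3257 higher, and 39 members were lower. RNA amount per cell cannot be read from these counts, and 3 libraries a group limit the precision.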
